A study of Mus musculus with 4 samples.

Results

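The lysosome's own genes were examined in mouse marrow cells that carried the MLL-AF9 fusion, with and without Elovl6, a fatty acid elongase that makes stearate out of palmitate. The set was a list of 50 names chosen by symbol: 26 hydrolases (13 proteases, 9 glycosidases and 4 other hydrolases), 14 subunits and accessory proteins of the proton pump, 5 membrane proteins, 2 lumen proteins that are not hydrolases and 3 transcription factors. Of these, 49 matched a row of the deposited table of 51826 features, and the name Neu1-like matched none. The tested cells were Elovl6 knockout (KO), with 2 libraries, and their controls were wild type (WT), with 2 libraries. All 4 libraries came from bone marrow cells negative for lineage markers and positive for c-kit that had been transduced with MLL-AF9, a fusion oncoprotein of acute myeloid leukaemia, and were sampled at a time labelled week 2. Total RNA was sequenced. The strain, the age of the animals, any pooling and the way in which Elovl6 was deleted are not stated in the sources used here. Whether the replicates are separate animals or cultures is likewise unstated, so every p-value reflects only how far these samples spread, which may be technical.

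Lysosomes degrade proteins, sugars, phosphate esters and lipids with hydrolases that work in an acid lumen, and a proton pump of the vacuolar type, made of a membrane sector (V0) and a cytosolic sector (V1), keeps that lumen acid. Proteases of the cathepsin family are delivered as proenzymes and cut to their active form in the lumen, and legumain (Lgmn) is among the enzymes that cut them. The transcription factors TFEB, TFE3 and MITF bind a short palindrome in the promoters of many of these genes. In myeloid cells several members have further uses: cathepsin G (Ctsg) is stored in the primary granules of granulocyte precursors, cathepsin C (Ctsc) activates such granule proteases, cathepsin S (Ctss) and legumain are abundant in macrophages, and tartrate-resistant acid phosphatase (Acp5) and cathepsin K (Ctsk) are marks of osteoclasts.

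RefSeq promoter windows matched 42 of the 49 genes by symbol. Each runs from 250 bases before to 50 bases after a start listed for the gene in build GRCm38.p6. They were searched for the palindrome CACGTG and for the longer palindrome TCACGTGA, which contains it. Both read the same on either strand. At least 1 window held CACGTG in 14 of the 42 genes (33.3%), against 8.09% of all 27025 genes with a window, and TCACGTGA was found in 6 of the 42 (14.3%), against 1.12% of all genes. CACGTG was found in 9 of 22 hydrolases (40.9%) and in 3 of 10 pump genes (30.0%). Members had 1.29 windows each on average, and all genes 1.22. The 6 genes have their 8 matches to the longer palindrome set out here, with the palindrome in capitals and 10 bases on either side, because the motif joins hydrolases, a membrane channel and pump subunits. Each is written 5′ to 3′ on the gene's strand.
Ctsa, plus strand, chr2:164833750-164833777: gagcaaactgTCACGTGAtgcagatgct
Ctsa, plus strand, chr2:164833767-164833794: atgcagatgcTCACGTGAccagagctac
Ctsd, minus strand, chr7:142387909-142387936: cgcccgcgtcTCACGTGAcccgttgagg
Gla, minus strand, chrX:134601216-134601243: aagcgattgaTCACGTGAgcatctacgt
Gla, minus strand, chrX:134601183-134601210: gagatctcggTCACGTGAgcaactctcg
Mcoln1, plus strand, chr8:3500463-3500490: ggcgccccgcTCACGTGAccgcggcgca
Atp6v0d1, minus strand, chr8:105566051-105566078: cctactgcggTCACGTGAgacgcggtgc
Atp6v1a, minus strand, chr16:44139374-44139401: tttttttaaaTCACGTGAtaggcttaac

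The 250 bases before a listed start are printed for Ctsd and Cd63. These were the genes of the set that passed the test on exon counts, in opposite directions. The printed Cd63 bases lie wholly inside the gene's full span, 128900989 to 128912822, so the bases before that span are not shown. Those of Ctsd lie partly inside its span, 142375911 to 142388038. Capitals mark CACGTG and TCACGTGA. The Ctsd window holds the shorter palindrome at 2 places, and the Cd63 window holds neither motif. A match is a description of letters, and its absence says only that these letters are not in this window.
Ctsd, minus strand, chr7:142387828-142388077: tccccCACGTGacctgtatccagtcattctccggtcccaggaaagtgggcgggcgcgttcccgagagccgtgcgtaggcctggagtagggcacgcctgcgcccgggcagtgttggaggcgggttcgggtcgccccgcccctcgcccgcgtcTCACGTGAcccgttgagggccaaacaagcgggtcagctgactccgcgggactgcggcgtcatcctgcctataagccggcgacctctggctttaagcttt
Cd63, plus strand, chr10:128909095-128909344: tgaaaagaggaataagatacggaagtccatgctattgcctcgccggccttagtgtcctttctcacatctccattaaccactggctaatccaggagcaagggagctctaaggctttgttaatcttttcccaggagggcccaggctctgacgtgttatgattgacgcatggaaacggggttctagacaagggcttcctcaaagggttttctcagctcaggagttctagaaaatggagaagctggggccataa

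The libraries held 8986502 and 9699502 exon counts in KO and 9883596 and 11941588 in WT. Elovl6 itself had 17 and 34 counts in KO cells, against 1290 and 1673 in WT cells, a log2 fold change of -5.63 (edgeR quasi-likelihood test, adjusted p = 4.52e-05, n = 2 against 2). Kit, the receptor that marks the sorted fraction, was detected at 139 and 111 CPM (counts per 1000000 counts of the library) in KO libraries and 140 and 131 CPM in WT libraries. Of 8 markers listed for these cells, Kit among them, 7 were tested and edgeR called none in exon counts. By an unadjusted p under 0.05, 0 were higher and 3 lower in KO, against 11.7% and 9.11% of all genes. Their median log2 fold change was -0.23, with 2 positive. On reads placed in introns edgeR called Meis1 lower (log2 fold change -0.41, adjusted p = 0.0354). Lineage markers were not all absent. Cd3e, Cd8a, Ms4a1 and Ccr3 had no counts in any library. Of 8 markers of T and NK cells 2 were tested, and 5 had under 10 counts in all libraries. Thy1 rose, with 241 and 441 counts in KO libraries, against 156 and 138 in WT libraries (edgeR adjusted p = 0.0478). Nkg7 had 97 and 104 counts in KO libraries, against 107 and 123 in WT libraries (edgeR adjusted p = 0.955). Cd79b, of B cells, had 78 and 52 counts in KO libraries, against 151 and 185 in WT libraries (edgeR adjusted p = 0.0523). Of 10 erythroid markers 1 had enough reads to be tested, Car2, and it fell. It had 68 and 41 counts in KO libraries, against 178 and 286 in WT libraries (edgeR adjusted p = 0.0268). Late neutrophil markers summed to 2338 and 932 CPM in KO libraries, against 974 and 1473 CPM in WT libraries. Levels below are exon CPM after scaling of the libraries, fold changes are KO over WT on the log2 scale from edgeR's quasi-likelihood test with its standard error, and p-values are adjusted by Benjamini-Hochberg over all 11738 genes tested, with a threshold of 0.05. Since these are bulk samples, a larger number of cells of a type and more RNA per cell cannot be told apart.

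On exon counts, 47 of the 49 had enough reads to be tested, and 1 rose in KO cells, the aspartic protease cathepsin D (Ctsd), while 1 fell, the membrane tetraspanin Cd63. Over all genes tested, 1.82% rose and 0.980% fell. Of all 47 members tested, 33 had a positive log2 fold change, against 5789 of 11738 genes, and the median was 0.15, against 0.00 over all genes. Both KO libraries lay above both WT libraries in 26 of 47 members, a pattern met in 26.8% of all genes, and below them in 8 of 47, a pattern met in 27.0%. By an unadjusted p under 0.05 the counts were 19 higher and 3 lower of 47 members, against 11.7% and 9.11% of all genes. DESeq2 called 6 members higher and 1 lower, and limma-voom called 1 in each direction. Over all genes, DESeq2 called 467 and limma-voom 222, against 329 with edgeR. A fit with 1 library left out keeps 1 library in a group, so its spread comes from the other group alone. The calls rest on few libraries: of all genes, 329 were called with all 4 libraries, but 1449 without KO replicate 1, 306 without KO replicate 2, 14 without WT replicate 1 and 25 without WT replicate 2. Among the members, 15 were higher and 3 lower without KO replicate 1, 4 were higher and 1 lower without KO replicate 2, and none was called in either direction without either WT library.

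**Figure D1:**
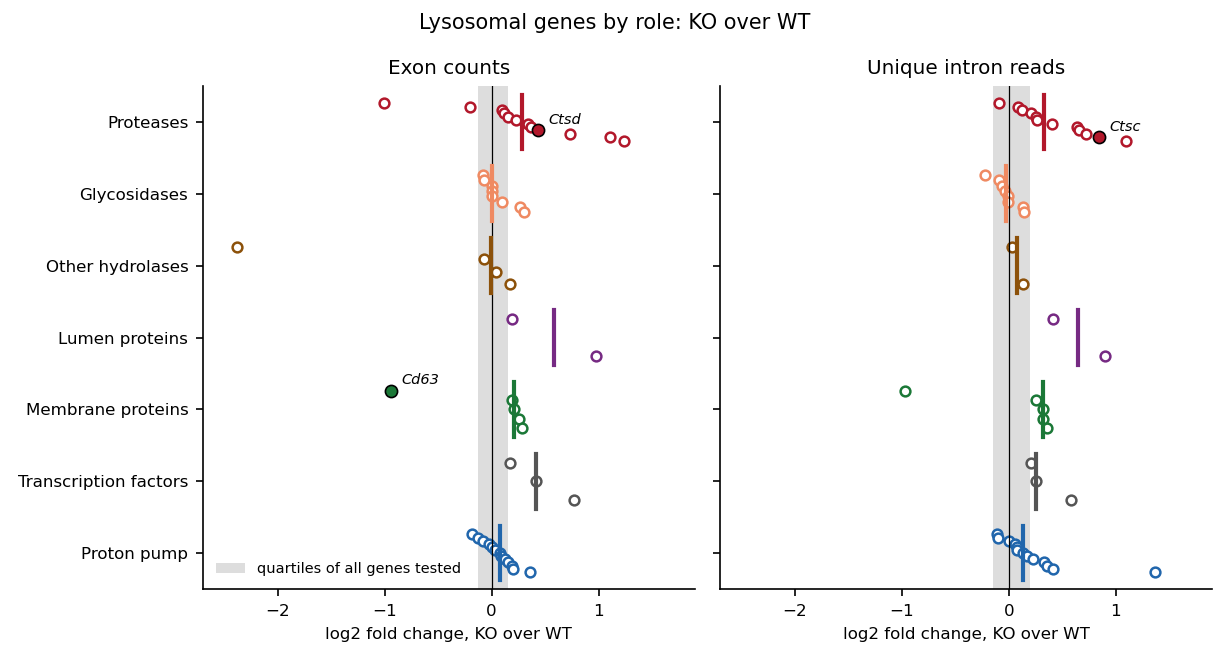
Each point is a lysosomal gene, placed by its log2 fold change, KO over WT, in exon counts (left) and unique intron reads (right), with the roles from top to bottom. Filled points passed the test, thick bars are the median of each role and the grey band spans the quartiles of all genes tested (-0.13 to 0.15 in exon counts). Of the 12 proteases tested in exon counts 8 lie right of the band, 2 within it and 2, Ctsf and Ctsg, left of it, while every tested pump gene except Atp6v0a1 lies between -0.18 and 0.20 in exon counts.

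Among the 12 proteases tested, Ctsd rose by edgeR and by limma-voom, while DESeq2 called 5 higher: Ctsd, Ctsc, Ctss, Lgmn and Ctsa. Ctsd (ENSMUSG00000007891), which works on proteins at acid pH, lies on the minus strand of chromosome 7 at 142375911 to 142388038 in mm10. It was at 221 and 230 CPM in KO libraries, against 164 and 170 CPM in WT libraries. The groups did not overlap, and each pair of replicates lay close together. The log2 fold change was 0.43 (SE 0.06, adjusted p = 0.0185), a 1.35-fold higher level. Without WT replicate 1 the adjusted p was 0.277, and without WT replicate 2 it was 0.168, with log2 fold changes of 0.40 and 0.46. The gene overlaps AC034099.1 on the same strand, and its exon counts hold 45.7% of all exon reads placed on it. With every exon read placed on it, the log2 fold change was 0.37 (adjusted p = 0.0363).

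The cysteine proteases cathepsin S and cathepsin C missed the threshold narrowly with edgeR and passed it with DESeq2. Ctss, which trims the invariant chain for antigen presentation, was at 49.3 and 81.5 CPM in KO libraries, against 29.5 and 31.0 CPM in WT libraries. Its log2 fold change was 1.11 (SE 0.22, adjusted p = 0.0507), and the DESeq2 adjusted p was 1.88e-05. Ctsc was at 164 and 233 CPM in KO libraries, against 125 and 114 CPM in WT libraries, with a log2 fold change of 0.73 (SE 0.15, adjusted p = 0.0561) and a DESeq2 adjusted p of 2.68e-05. With edgeR, Ctss had a log2 fold change of 1.43 without KO replicate 1 and of 0.70 without KO replicate 2. Those of Ctsc were 0.97 and 0.46 in that order. In these fits 1 KO library remained, so the spread comes from the WT libraries alone and no p-value is given. In both genes the KO libraries lay above the WT libraries and KO replicate 2 was well above KO replicate 1. Legumain, which cuts after asparagine, followed the same order at a lower level. Lgmn was at 11.1 and 24.3 CPM in KO libraries, against 8.45 and 6.70 CPM in WT libraries, with a log2 fold change of 1.24 (SE 0.36, adjusted p = 0.118, DESeq2 adjusted p = 0.0268). Its log2 fold change was 1.69 without KO replicate 1 and 0.56 without KO replicate 2. The gap between the KO libraries was wider than the gap from the lower of them to either WT library.

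Cathepsin G went the other way. Ctsg had the highest level per exon length of the set, 542 RPKM on average over the 4 libraries (reads scaled to exon length and library total). It was at 1112 and 995 CPM in KO libraries, against 1238 and 1181 CPM in WT libraries, with a log2 fold change of -0.20 (SE 0.07, adjusted p = 0.171). Cathepsin Z (Ctsz), a carboxypeptidase, was at 96.7 RPKM, the next in level among the proteases. Ctsz was at 301 and 325 CPM in KO libraries, against 290 and 246 CPM in WT libraries (log2 fold change 0.23, adjusted p = 0.209). The remaining tested proteases, Ctsa, Ctsb, Ctsf, Ctsh, Ctsl and the tripeptidyl peptidase Tpp1, had log2 fold changes of -1.01 to 0.37. None of these 6 was called by edgeR or limma-voom, and DESeq2 called Ctsa higher (log2 fold change 0.34, adjusted p = 0.0474, against 0.106 with edgeR). Of the 12 proteases tested, 10 had a positive value, with a median of 0.28. Ctsk had 3 and 1 counts in KO libraries, against 1 and 2 in WT libraries, and was below the filter. The 10 cathepsins other than Ctsg summed to 1153 and 1385 CPM in KO libraries, against 1004 and 951 CPM in WT libraries.

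Macrophage markers were higher in the same libraries. Of 22 monocyte and macrophage markers, 21 were matched and 17 tested, and 4 rose, against 1.82% of all genes. These were Cybb, a subunit of the phagocyte oxidase, Lyz2, the macrophage lysozyme, Lgals3, a galectin, and Msr1, a scavenger receptor. DESeq2 called 8 and limma-voom 3. At an unadjusted p under 0.05, 15 of the 17 were higher and 0 lower, against 11.7% and 9.11% of all genes. On intron reads 6 of 14 tested rose, against 2.59% of all genes. The median log2 fold change of the 17 was 0.94. The matched markers summed to 2600 and 3710 CPM in KO libraries, against 1772 and 1845 CPM in WT libraries, and C1qa and C1qb, which mark mature macrophages, had no counts in any library. The order of the 4 libraries was close to that of Ctss, Ctsc, Lgmn and Psap, with KO replicate 2 highest. The part that these cells or genes have in the protease levels was not tested. Markers of primary granules, the store of Ctsg, summed to 7567 and 5277 CPM in KO libraries, against 8511 and 8763 CPM in WT libraries. None of the 6 tested was called by edgeR, DESeq2 or limma-voom, 4 were lower at an unadjusted p under 0.05, and their part in the Ctsg level was not tested.

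**Figure D2:**
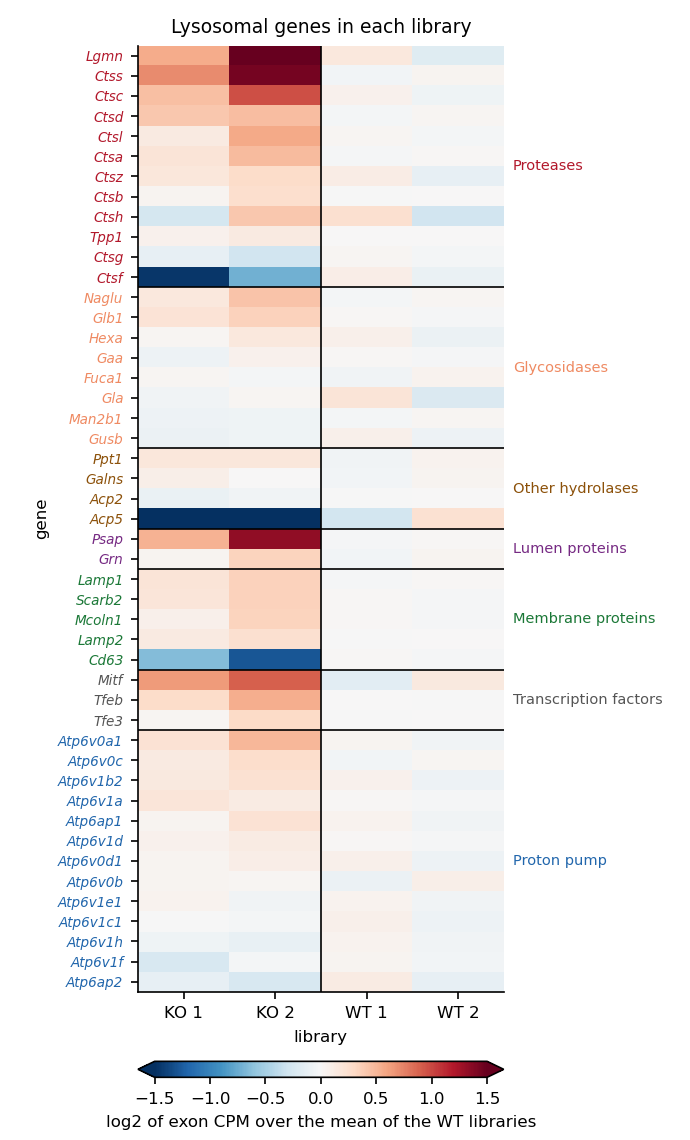
Each row is a lysosomal gene and each column a library, with KO on the left and WT on the right. The colour is the log2 ratio of its exon CPM to the mean of the WT libraries (red higher, blue lower), and colours stop at 1.5 in either direction. The strongest reds sit in KO replicate 2 for Lgmn, Ctss, Ctsc and Psap, the blues in Cd63, Acp5 and Ctsf, and the pump block at the bottom is pale.

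The glycosidases were centred on no change. Their median log2 fold change was 0.00 over 8 tested genes, with a range of -0.08 to 0.30. The most abundant per exon length was hexosaminidase A (Hexa, 47.7 RPKM), whose loss causes Tay-Sachs disease in people. Hexa was at 194 and 211 CPM in KO libraries, against 200 and 179 CPM in WT libraries, and the groups overlapped. Beta-glucuronidase (Gusb) was at 377 and 381 CPM in KO libraries, against 420 and 379 CPM in WT libraries, again with overlap. Lysosomal alpha-mannosidase (Man2b1) was at 388 and 393 CPM in KO libraries, against 402 and 417 CPM in WT libraries, a log2 fold change of -0.07 (SE 0.05). The largest values were those of Naglu, which acts on heparan sulfate, and of the beta-galactosidase Glb1, at 0.30 (adjusted p = 0.218) and 0.27 (adjusted p = 0.147). None of the 8 was called by edgeR, DESeq2 or limma-voom, and 2 were higher at an unadjusted p under 0.05, against 11.7% of all genes. Summed over the 8 matched glycosidases, levels were 1267 and 1320 CPM in KO libraries and 1332 and 1274 CPM in WT libraries.

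Of the other hydrolases, the palmitoyl-protein thioesterase Ppt1, which removes fatty acids from proteins, was at 87.6 and 88.1 CPM in KO libraries, against 75.3 and 81.0 CPM in WT libraries (log2 fold change 0.17, adjusted p = 0.233). Galns, a sulfatase of keratan sulfate, was at 40.7 and 38.3 CPM in KO libraries and 37.1 and 39.5 CPM in WT libraries. Acid phosphatase 2 (Acp2) was at 24.7 and 25.6 CPM in KO libraries and 26.4 and 26.5 CPM in WT libraries. The tartrate-resistant phosphatase Acp5 was low throughout. It had 11 and 3 counts in KO libraries, against 32 and 55 counts in WT libraries, with a log2 fold change of -2.38 (SE 0.53, adjusted p = 0.0680). Its log2 fold change was -3.63 without KO replicate 1 and -1.69 without KO replicate 2. Exon counts hold 43.0% of all exon reads placed on Acp5, which lies within AC163623.3 on the opposite strand. With every exon read placed on it, the log2 fold change was -2.23, past the threshold (adjusted p = 0.0355). None of these 4 was called in exon counts by edgeR, DESeq2 or limma-voom. By an unadjusted p under 0.05, 1 was higher and 1 lower, against 11.7% and 9.11% of all genes. Of 10 osteoclast markers 6 were tested, with 2 higher at an unadjusted p under 0.05, and none was called by any of the 3 tools. Another 4 had under 10 counts in all libraries, among them Calcr, which had none. The 10 summed to 235 and 241 CPM in KO libraries and 200 and 199 CPM in WT libraries. The largest parts were Nfatc1, Ostm1 and Clcn7, at 73.2, 72.7 and 57.5 CPM in KO replicate 1. Ostm1 and Clcn7 were also on the list of further lysosomal membrane and lumen proteins.

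The 2 lumen proteins gave unlike values. Prosaposin (Psap), the precursor of the saposins that present lipids to hydrolases, was the second most abundant gene of the set per exon length, at 155 RPKM. It was at 828 and 1450 CPM in KO libraries, against 570 and 587 CPM in WT libraries. The KO libraries lay above WT but far apart, and the log2 fold change of 0.98 (SE 0.22) had an adjusted p of 0.0708. Its log2 fold change was 1.33 without KO replicate 1 and 0.52 without KO replicate 2. Progranulin (Grn), a secreted protein that reaches the lysosome, was at 326 and 399 CPM in KO libraries, against 309 and 325 CPM in WT libraries (log2 fold change 0.19, adjusted p = 0.315). Neither was called by DESeq2 or limma-voom, and 1 was higher at an unadjusted p under 0.05, against 11.7% of all genes.

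Of the membrane proteins, Cd63 fell and the other 4 were higher in both KO libraries. Of those 4 none was called by edgeR or limma-voom, and DESeq2 called Lamp1. Cd63 (ENSMUSG00000025351), a tetraspanin of late endosomes, lysosomes and secretory granules, is encoded at 128900989 to 128912822 of chromosome 10, plus strand. It was at 69.4 and 44.7 CPM in KO libraries, against 110 and 108 CPM in WT libraries. The groups did not overlap. The log2 fold change was -0.94 (SE 0.17, adjusted p = 0.0463), a 1.92-fold lower level in KO cells. Exon counts hold 75.1% of the exon reads placed on Cd63. The adjusted p was 0.370 without WT replicate 1, 0.243 without WT replicate 2 and 0.0668 when genes with a mean under 10 CPM were left out of the test. Markers of eosinophils summed to 54.1 and 19.7 CPM in KO libraries, against 410 and 95.5 CPM in WT libraries, and markers of mast cells and basophils to 20.0 and 37.5 CPM in KO libraries, against 41.4 and 39.0 CPM in WT libraries. Their part in the Cd63 level was not tested. Of the 9 eosinophil markers 7 were tested in exon counts and none was called by edgeR, DESeq2 or limma-voom. By an unadjusted p under 0.05, 5 were lower, against 9.11% of all genes. On intron reads 4 were tested and edgeR called 1 lower, Epx (log2 fold change -2.69, adjusted p = 0.0454). Ccr3 had no counts. All 10 mast cell and basophil markers were matched, 6 were tested and none was called by any of these tools, with 2 lower at an unadjusted p under 0.05.

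The 2 major glycoproteins of the lysosomal membrane gave narrow values. Lamp1 was at 338 and 377 CPM in KO libraries, against 292 and 299 CPM in WT libraries, with a log2 fold change of 0.28 (SE 0.07, adjusted p = 0.0827, DESeq2 adjusted p = 0.0375). Lamp2 was at 252 and 271 CPM in KO libraries, against 229 and 231 CPM in WT libraries (log2 fold change 0.19, adjusted p = 0.147). Scarb2, the receptor that carries beta-glucocerebrosidase to the lysosome, had a log2 fold change of 0.26, and the calcium channel Mcoln1 one of 0.21. For these 4 genes both KO libraries lay above both WT libraries, a pattern met in 26.8% of all genes.

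The 3 transcription factors were all higher in both KO libraries than in both WT libraries, a pattern met in 26.8% of all genes. None of the 3 was called in exon counts by edgeR, DESeq2 or limma-voom. By an unadjusted p under 0.05, 2 were higher, against 11.7% of all genes. Mitf, the lowest of the 3 per exon length, was at 13.5 and 16.1 CPM in KO libraries, against 7.74 and 9.55 CPM in WT libraries (log2 fold change 0.77, SE 0.18, adjusted p = 0.0785). Tfeb was at 21.1 and 25.4 CPM in KO libraries, against 17.5 and 17.4 CPM in WT libraries (log2 fold change 0.42, adjusted p = 0.144). Tfe3 was at 50.8 and 60.7 CPM in KO libraries, against 49.7 and 49.8 CPM in WT libraries (log2 fold change 0.17, adjusted p = 0.419). These factors are controlled chiefly by where they lie in the cell, which RNA levels do not measure.

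The proton pump stayed within a narrow range in exon counts. None of the 13 tested subunits and accessory proteins was called by edgeR, DESeq2 or limma-voom, and 3 of 13 were higher at an unadjusted p under 0.05, against 11.7% of all genes. Log2 fold changes ran from -0.18 to 0.36, with a median of 0.08, and 8 were positive. The subunit d1 of the V0 sector (Atp6v0d1) had the highest level per exon length, 36.2 RPKM. Atp6v0d1 was at 136 and 142 CPM in KO libraries, against 139 and 125 CPM in WT libraries, and the groups overlapped. The proteolipid subunit Atp6v0c followed at 30.3 RPKM. That value, and so its rank, comes from all exon reads placed on the gene, of which its exon counts hold 17.7%. Atp6v0c was at 38.6 and 42.3 CPM in KO libraries, against 34.4 and 36.1 CPM in WT libraries (log2 fold change 0.20, adjusted p = 0.308). Atp6v1f, of the V1 sector, was at 48.8 and 56.4 CPM in KO libraries, against 59.2 and 56.3 CPM in WT libraries (log2 fold change -0.13, adjusted p = 0.489).

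The outermost pump values belonged to Atp6v0a1 at the upper end and to Atp6ap2 at the lower. Atp6v0a1, a subunit through which protons pass, was at 101 and 122 CPM in KO libraries, against 89.5 and 83.8 CPM in WT libraries (log2 fold change 0.36, SE 0.10, adjusted p = 0.105). Atp6ap2, an accessory protein also known as the prorenin receptor, was at 102 and 94.4 CPM in KO libraries, against 121 and 102 CPM in WT libraries (log2 fold change -0.18, adjusted p = 0.314). Atp6v0d2, the form of subunit d found in osteoclasts, had 6 and 13 counts in KO libraries, against 8 and 3 in WT libraries, and was below the filter. The remaining subunits had log2 fold changes of -0.08 to 0.19. Summed over the 14 pump genes, levels were 1452 and 1489 CPM in KO libraries and 1436 and 1349 CPM in WT libraries.

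Set side by side in exon counts, the hydrolases and the pump had close medians and unlike ranges. The 24 tested hydrolases had a median log2 fold change of 0.11 and a range of -2.38 to 1.24. Acp5 and Lgmn, both with few reads, set the ends of that range, while Atp6v0d2 of the pump was below the filter. The 13 pump genes had a median of 0.08 within -0.18 to 0.36, and the median over all genes was 0.00. The medians differed by 0.03, against an SD of 0.039 for that difference between replicates, and by 0.00 to 0.05 when each library was left out in turn. Within the hydrolases the proteases had a median of 0.28 and the glycosidases one of 0.00. Relative to the WT mean, the median hydrolase stood at 0.05 and 0.17 in the KO libraries and at 0.01 and -0.01 in the WT libraries. The median pump gene stood at 0.05 and 0.11 in the KO libraries and at 0.05 and -0.05 in the WT libraries. In 20 of 24 hydrolases and 7 of 13 pump genes KO replicate 2 exceeded KO replicate 1, an order met in 51.8% of all genes tested. The genes were chosen with earlier results of these data known, so the medians carry no test. By promoter, the 14 members with CACGTG had a median log2 fold change of 0.24 (-1.01 to 1.24, 11 positive), and the 27 tested members with a window but without it one of 0.13 (-2.38 to 1.11, 18 positive), so the ranges overlapped widely.

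**Figure D3:**
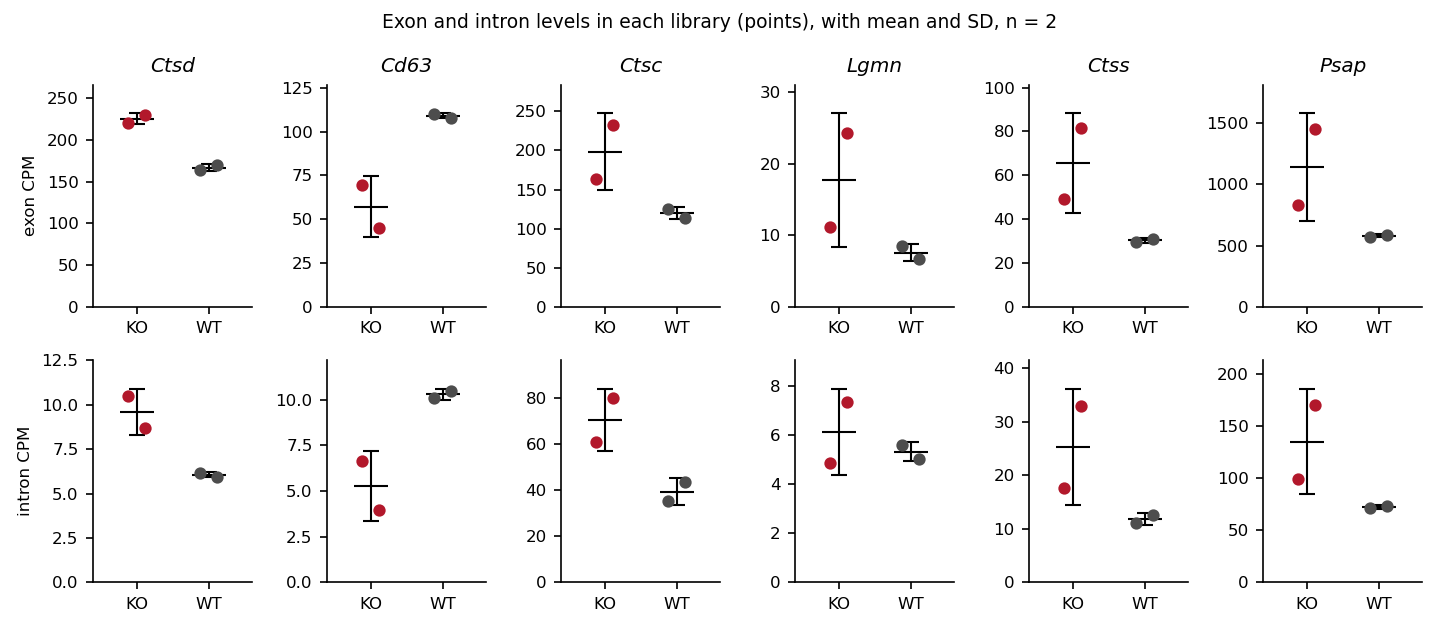
Exon CPM (top) and intron CPM (bottom) of the 3 proteases and the tetraspanin that passed any test, with Ctss and Psap. Points are libraries, with KO left of WT, and bars are the mean and SD of 2 libraries. In exon counts the KO points of Ctsd lie close together, those of Ctsc, Lgmn, Ctss and Psap lie far apart, and those of Cd63 lie below WT.

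Reads placed in introns stand mostly for unspliced RNA and give another reading of the same libraries. On unique intron reads, 45 members could be tested and 1 rose, Ctsc. None fell by edgeR or DESeq2, and DESeq2 called 3 higher: Ctsc, Ctss and Mitf. At an unadjusted p under 0.05, 13 were higher and 1 lower, against 10.2% and 9.59% of all genes. Over all 12359 genes tested on these reads, 2.59% rose and 2.23% fell. DESeq2 called 461 of all genes on these reads, against 595 with edgeR. Ctsc (ENSMUSG00000030560; chromosome 7, 88278085 to 88310888, plus strand) was at 61.0 and 80.0 intron CPM in KO libraries, against 35.2 and 43.6 intron CPM in WT libraries. The groups did not overlap. The log2 fold change was 0.84 (SE 0.15, adjusted p = 0.0209), and the adjusted p was 0.0863 without WT replicate 1. Next came Psap at 0.90 (adjusted p = 0.0558), Lamp2 at 0.32 (adjusted p = 0.0595) and Ctss at 1.10 (adjusted p = 0.0668). Cd63 had an intron log2 fold change of -0.97 (adjusted p = 0.0802) and Ctsd one of 0.66 (adjusted p = 0.124). Their intron levels were 6.66 and 3.95 CPM in KO libraries, against 10.1 and 10.5 CPM in WT libraries, for Cd63. For Ctsd they were 10.5 and 8.69 CPM in KO libraries, against 6.16 and 5.95 CPM in WT libraries. Of the 12 proteases tested on introns 11 had a positive value, with a median of 0.33, and of the 8 glycosidases 2 were positive, with a median of -0.03. Of the 13 pump genes 10 were positive with a median of 0.13, and none was called by edgeR or DESeq2 (3 higher at an unadjusted p under 0.05). Their intron range was -0.11 to 1.37, against -0.22 to 1.10 for the hydrolases. At its top was Atp6v0d2, with 11 and 17 intron reads in KO libraries and 8 and 4 in WT libraries.

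Acp5, Galns and Atp6v0c were listed with no unique intron reads in any library. Each lies inside another annotated gene, AC163623.3, Gm20388 and Gm43796 in that order. Of genes with at least 1000 exon counts over the 4 libraries, all 62 that lay wholly inside a gene of the opposite strand, and all 23 otherwise nested, had no unique intron reads, against 16 of 5959 that were not nested. The intron columns therefore give no reading for these 3 members.

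Exon and intron changes could be compared in 43 members, in a fit that kept the library as a block and tested the exon change minus the intron change. Lgmn was called higher in exons than in introns, and no member lower (3 higher and 4 lower at an unadjusted p under 0.05). Over all 10366 genes of this fit, 1.00% were called higher and 0.415% lower, and the shares at an unadjusted p under 0.05 were 6.94% and 5.07%. Lgmn (ENSMUSG00000021190) lies on the minus strand of chromosome 12 at 102394084 to 102439813. Its intron level was 4.89 and 7.37 CPM in KO libraries, against 5.61 and 5.05 CPM in WT libraries, so the groups overlapped in introns and not in exons. The intron log2 fold change was 0.21 (SE 0.27) beside 1.24 in exons, and the difference was 1.03 (SE 0.29, adjusted p = 0.0475). It rests on 33 and 56 intron reads in KO libraries and 41 and 45 in WT libraries. The adjusted p was 0.617 without KO replicate 2, 0.131 without WT replicate 1 and 0.202 without WT replicate 2. Across the 43 members the exon and intron log2 fold changes had the same sign in 34 and a Pearson correlation of 0.80, beside 0.77 over all 10366 genes. Both measures come from the same 4 libraries.

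**Figure D4:**
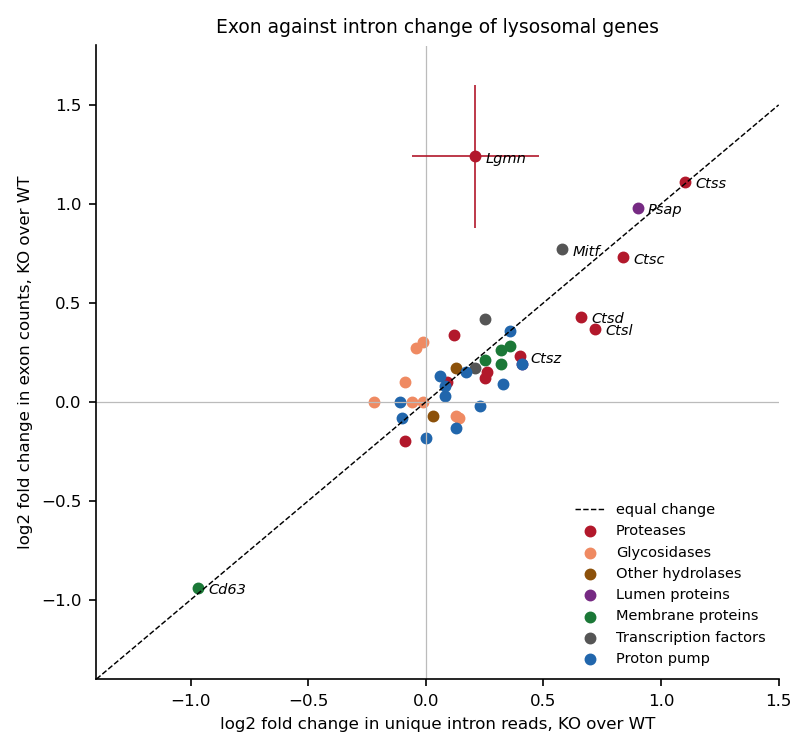
Each point is a lysosomal gene tested in both read kinds, with the log2 fold change in unique intron reads on the x axis and in exon counts on the y axis, KO over WT, coloured by role. The dashed line marks an equal change, and the bars on Lgmn are its standard errors. Lgmn lies above the line (0.21 in introns, 1.24 in exons), while Ctss, Psap and Cd63 lie near it.

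Other genes of the pathway gave 4 further hydrolases past the threshold. Of 29 tested hydrolases outside the set 2 rose and 2 fell, against 1.82% and 0.980% of all genes. Their median log2 fold change was 0.09, with 20 positive. DESeq2 called 5 and limma-voom 3. At an unadjusted p under 0.05, 9 were higher and 3 lower, against 11.7% and 9.11% of all genes. Smpd1, the acid sphingomyelinase, was at 38.2 and 44.8 CPM in KO libraries, against 19.2 and 18.7 CPM in WT libraries (log2 fold change 1.13, SE 0.12, adjusted p = 0.00786). Dpp7, a dipeptidyl peptidase, was at 24.2 and 28.1 CPM in KO libraries, against 16.4 and 17.1 CPM in WT libraries (log2 fold change 0.64, adjusted p = 0.0489). Arsb, a sulfatase of dermatan sulfate, was at 34.7 and 24.9 CPM in KO libraries, against 63.2 and 61.0 CPM in WT libraries (log2 fold change -1.06, adjusted p = 0.0230). Manba, the beta-mannosidase, was at 67.0 and 63.4 CPM in KO libraries, against 97.7 and 98.8 CPM in WT libraries (log2 fold change -0.59, adjusted p = 0.0121). The hydrolases past the threshold, Ctsd among them, thus included both higher and lower ones.

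The other pathway lists gave 1 call in exon counts. Over all genes tested, edgeR called 1.82% higher and 0.980% lower. By an unadjusted p under 0.05, 11.7% of all genes were higher and 9.11% lower, to be read beside the counts below. Of 10 tested inhibitors of cathepsins, Stfa1, a stefin, fell, at 5.45 and 0.824 CPM in KO libraries, against 19.7 and 23.6 CPM in WT libraries (log2 fold change -2.81, adjusted p = 0.0466). DESeq2 called none of these inhibitors and limma-voom 1, and 1 was higher and 4 lower at an unadjusted p under 0.05. Of 7 further pump subunits tested none was called by edgeR, DESeq2 or limma-voom, and 1 was higher at an unadjusted p under 0.05. Of 24 further membrane and lumen proteins none was called by edgeR or limma-voom, DESeq2 called 2, and 5 were higher at an unadjusted p under 0.05. Their median log2 fold change was 0.17, with 21 positive. Of 17 genes that sort enzymes to the lysosome none was called by edgeR or limma-voom, DESeq2 called 1, and 4 were higher and 1 lower at an unadjusted p under 0.05. Their median was -0.05. Of 18 genes that control TFEB and TFE3 at the lysosome none was called in exon counts by edgeR or limma-voom, and DESeq2 called 1. At an unadjusted p under 0.05, 3 were higher and 3 lower. Their median was 0.00. On intron reads edgeR called 1 of the 18 higher.

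The authors' deposited table holds their own test, an EDGE test with a signed fold change in which a positive value means higher in KO. A corrected p under 0.05 was listed for 888 of 51826 features (1.71%) in the authors' deposited table. Of the 49 members 8 did, 6 of them higher in KO: Ctsc, Ctsd, Ctss, Lgmn, Psap and Mitf. The other 2, Acp5 and Cd63, were lower. In the authors' deposited table the signed folds were 1.65 for Ctsc, 1.34 for Ctsd, 2.14 for Ctss, 2.33 for Lgmn, 1.95 for Psap and 1.68 for Mitf. For Acp5 the authors' deposited table gives -5.29, and for Cd63 it gives -1.93. No glycosidase and no pump gene was among them.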

How the data were processed

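The deposited table gives, per the file headers, whole-number counts for each gene and library as expression values, total exon reads, unique exon reads and unique intron reads, and RPKM that the authors computed from total exon reads and exon length. Per the file headers it also gives the authors' EDGE test, from which the signed fold change (a score, positive where KO is higher) and the corrected p-value were taken. The submitters' processing notes name build mm10, while aligner, counter and strand setting are not stated in the sources used here. Per the labels' protocols, Trizol was used for extraction and a directional NEBNext kit for the libraries. Groups came from the sample titles.

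Genes entered the fits where filterByExpr kept them (at least 10 counts, total of at least 15). Expression values were scaled by TMM and tested with edgeR 4.0.16 (quasi-likelihood, KO against WT, no block, Benjamini-Hochberg over 11738 genes). Unique intron reads were treated alike over 12359 genes, and 10366 genes entered the fit of exon change minus intron change, with the library as a block. Each test was tried on simulated data, where the exon test made more false calls than its nominal rate, so an adjusted p just under 0.05 is optimistic. DESeq2 1.42.0 and voom of limma 3.58.1 were alternatives, as were RLE scaling, other filters, unique exon reads, a replicate block and each library left out. Total exon reads were added after seeing the data. Libraries held 8986502 to 11941588 exon counts, in which 3 counts equal 0.251 to 0.334 CPM. Gene IDs were matched to GENCODE vM21 (99.6% found), and promoters by symbol to RefSeq GRCm38.p6.

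The members and the other gene lists were chosen with earlier results of these data known. Named with values in all libraries are members past the threshold in any fit and the 3 most abundant of each role per exon length; genes near the threshold or at the ends of a range were named after their values were seen. Of the other lists, at most 4 genes past the threshold are named.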

Additional observations from a re-analysis of the deposited data

How the results depend on the processing

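No value of a member changed direction while called. Of 1254 values of single members under the alternatives, 1090 kept their direction and their side of the threshold, 77 passed it where the reported test did not, 9 no longer passed it and 78 uncalled values took the other sign. Those 9 belong to Ctsd and Cd63 in exon counts, Ctsc in introns and Lgmn in the exon change minus the intron change, and are given beside these genes.

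Counts of calls moved more, and the cause was not tested. In exon counts, 329 genes were called, with 1 member higher and 1 lower. DESeq2 called 6 members higher. With no filter, 1677 genes were called, with 12 members higher and 3 lower. With a mean of at least 10 CPM, 112 genes were called and 0 members lower. Unique exon reads gave 2 members higher, and total exon reads 2 lower. With each library left out, calls ranged from 14 to 1449 genes, with 0 to 15 members higher and 0 to 3 lower. In intron reads, 595 genes were called. DESeq2 called 3 members higher. With no filter, 1565 genes were called, with 10 members higher and 1 lower. With a mean of at least 10 CPM, 370 were called. With each library left out, 287 to 1299 genes were called, with 0 to 9 members higher and 0 to 1 lower. For the exon change minus the intron change, 147 genes were called, and 46 to 219 with each library left out, with 0 to 1 members higher. The pump's median log2 fold change ranged from 0.05 to 0.13 with each library left out, and the hydrolases' from 0.05 to 0.17.

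With the replicate block, 875 genes were called in exon counts, with 7 members higher, 1430 in intron reads, with 9 members higher and 1 lower, and 261 for the exon change minus the intron change, with 2 members higher. The numbers were not taken as pairs: deviations of KO and WT libraries with the same number correlated at 0.094 in exon counts and 0.043 in intron reads.

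With 2 libraries a group, an exact permutation test of a single value cannot go below a two-sided p of 0.333. Genes with few reads, such as Acp5, Ctsf and Lgmn in exon counts and Atp6v0d2 and Ctsk in intron reads, carry wide errors. Genes nested in others give no intron reading.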
